A study of Mus musculus with 16 samples.

Results

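The genes examined here encode proteins of the T cell receptor machinery: the CD3 chains Cd3d, Cd3e and Cd3g, the coreceptors Cd4 and Cd8a, the kinases Lck and Zap70, and the T cell surface proteins Cd2, Cd5 and Thy1. They were chosen by name, and each matched 1 RefSeq target, which makes 10 of the 23930 targets measured. Of these, 8 had enough counts to be tested among 13633 genes, while Cd5 and Zap70 did not pass the filter on low counts and are given by their counts. The list is wider than the receptor complex itself, since Cd2, Cd5 and Thy1 are separate surface proteins and Lck and Zap70 act inside the cell.

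The T cell receptor recognises peptide held by an MHC molecule, and its CD3 chains carry the signal across the membrane. Lck, which the coreceptors CD4 and CD8 bind, phosphorylates the CD3 chains, and ZAP-70 docks on them and passes the signal on to adaptor proteins. Mouse epidermis holds resident gamma-delta T cells that carry CD3 and Thy1 and mostly lack CD4 and CD8, and the dermis holds further T cells that include CD4+ and CD8+ cells.

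Whole skin came from mice 12 weeks old, and all mice of all groups carried the floxed alleles Zc3h12a(loxP/loxP). Zc3h12a encodes MCPIP1, also known as Regnase-1, an endonuclease that cleaves mRNAs of inflammatory genes. Control mice had no Cre. EKO mice also carried Krt14Cre(Tg/Wt), named in the series as specific to keratinocytes, MKO mice carried LysMCre(Tg/Wt), named as specific to myeloid cells, and EMdKO mice carried both. Neither Cre is aimed at T cells. Each group had 4 mice, numbered in the labels as separate animals, and each mouse gave 1 library, so the spread below is that between mice.

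Each library held 6962474 to 12086327 counts on its targets. Levels are given as CPM, read counts relative to a library size scaled by the trimmed mean of M values (TMM), and group levels as mean ± SD of 4 mice. Pooled levels and limits for a count of 0 are CPM without this scaling. Fitted differences are log2 fold changes with a standard error (SE), and a gene is said to have changed where its Benjamini-Hochberg adjusted p in edgeR's quasi-likelihood test was under 0.05. The targeted gene Zc3h12a averaged 24.7 ± 4.99 CPM for Control mice, 8.63 ± 2.10 for EKO, 26.5 ± 7.55 for MKO and 5.32 ± 0.617 for EMdKO (SD, n = 4 each). It fell in EMdKO against Control (log2 fold change -2.21, SE 0.24, edgeR adjusted p = 0.000448), and the difference of EKO from Control was -1.52 (SE 0.23, edgeR adjusted p = 0.082, from 4.77e-06 to 0.806 over 26 alternative settings). Hair shaft RNA differed widely between libraries, and the mean log2 CPM of 13 hair shaft and root sheath genes ran from -1.74 to 10.48 in Control, 1.04 to 7.73 in EKO, -1.73 to 3.69 in MKO and -1.68 to 7.61 in EMdKO.

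No member changed in any of the 6 comparisons between groups. In EKO against Control, MKO against Control, EMdKO against Control, EMdKO against EKO, EMdKO against MKO and EKO against MKO, edgeR called 0 of 8 tested members each time. The share of all tested genes called was 0%, 0.0293%, 0.0293%, 0.0147%, 0.00734% and 0.858% in that order, so a count of 0 among 8 genes lies near the background. DESeq2 called 0 members in each comparison, and limma-voom with sample quality weights called 0 in 5 comparisons and 1, Cd3e, in EKO against MKO. In EKO against MKO limma-voom called 1591 of the 13633 tested genes, so 1 call among 8 members lies near the background. At an unadjusted p under 0.05 edgeR found 1, 0, 1, 1, 0 and 1 members in that order, where all tested genes gave 6.9%, 9.58%, 8.16%, 6.59%, 7.42% and 16.9%. These were Cd3e in both comparisons of EKO with a group lacking Krt14Cre, and Cd2 in EMdKO against Control and against EKO. Since the tissue was taken whole, fewer T cells and less RNA per T cell cannot be told apart in any of the values below.

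**Figure D1:**
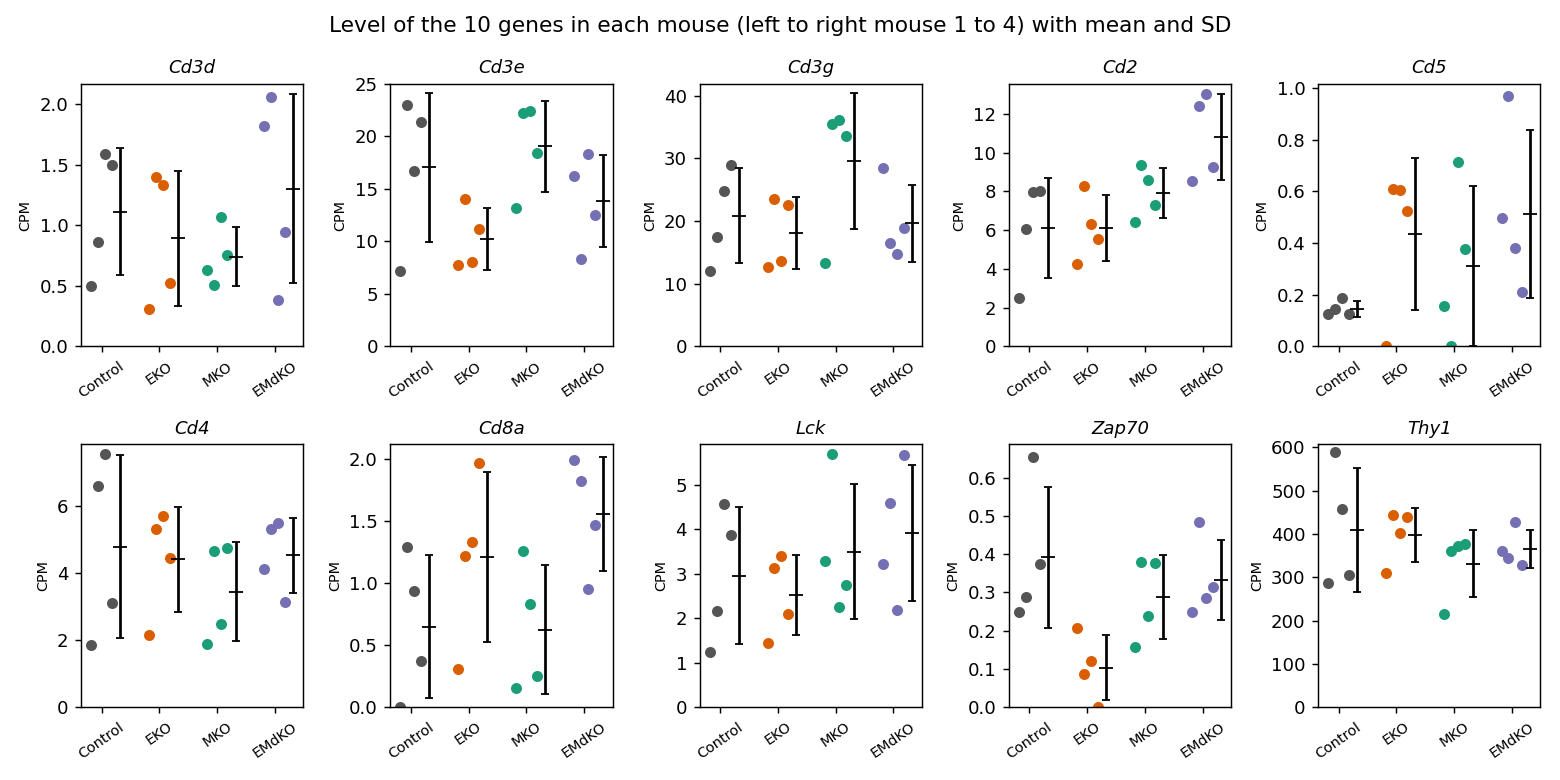
Level of each of the 10 genes in CPM (vertical axis, linear from 0, a separate scale per gene) in each mouse, shown as 1 point per mouse in order of mouse number within Control, EKO, MKO and EMdKO, with the group mean and SD of 4 mice beside the points. The EMdKO points of Cd2, from 8.54 to 13 CPM, lie above all Control points, and 3 of the 4 MKO points of Cd3g lie at 33.5 to 36.1 CPM.

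The 3 CD3 chains lie together on mouse chromosome 9: Cd3g at chr9:44969572-44980431, Cd3d at chr9:44981769-44987052 and Cd3e at chr9:44998735-45009663 (RefSeq, GRCm38.p6, used for all gene positions here). Cd3g and Cd3d point away from each other, with start sites 1355 bases apart, and the start of Cd3e lies 27825 bases from that of Cd3d. Their promoter windows, 250 bases before to 50 bases after the start site, are shown because the CD3 chains are the receptor's own subunits and their levels are followed together across mice below. The sequences are from RefSeq for GRCm38.p6 and read 5′ to 3′ on the strand of the gene, and the capitals mark matches, on either strand, to the ETS letters AGGAAG, the E-box letters CACCTG, the RUNX letters TGTGGT and the TCF/LEF letters CTTTGA.
Cd3g, minus strand, chr9:44980382-44980681: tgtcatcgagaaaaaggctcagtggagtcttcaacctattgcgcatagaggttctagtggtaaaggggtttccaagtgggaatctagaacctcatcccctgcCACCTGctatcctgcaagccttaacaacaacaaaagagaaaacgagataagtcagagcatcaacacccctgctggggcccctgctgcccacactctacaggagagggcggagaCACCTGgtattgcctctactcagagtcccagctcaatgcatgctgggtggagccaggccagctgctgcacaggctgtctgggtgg
Cd3d, plus strand, chr9:44981536-44981835: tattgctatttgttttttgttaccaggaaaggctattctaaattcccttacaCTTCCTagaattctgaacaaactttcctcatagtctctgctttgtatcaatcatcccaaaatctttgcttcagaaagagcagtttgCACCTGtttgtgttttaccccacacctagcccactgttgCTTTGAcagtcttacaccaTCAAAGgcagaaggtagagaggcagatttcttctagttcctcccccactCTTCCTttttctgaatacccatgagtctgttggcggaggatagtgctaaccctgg
Cd3e, minus strand, chr9:45009562-45009861: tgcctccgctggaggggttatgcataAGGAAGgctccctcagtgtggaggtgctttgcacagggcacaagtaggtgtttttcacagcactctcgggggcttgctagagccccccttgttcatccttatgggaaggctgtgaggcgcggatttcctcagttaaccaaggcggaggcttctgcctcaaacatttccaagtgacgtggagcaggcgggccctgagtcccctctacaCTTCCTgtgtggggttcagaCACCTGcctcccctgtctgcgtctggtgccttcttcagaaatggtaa

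The Cd3g window held the E-box letters at 2 places and none of the other motifs, while the Cd3d window held 2 ETS, 1 E-box and 2 TCF/LEF matches and the Cd3e window 2 ETS matches and 1 E-box match. The promoter table matched 7 of the 10 members, with 10 windows in all, since Lck has 2 start sites in the table and Zap70 has 3. Cd2, Cd4 and Thy1 did not match. E-box letters occurred in 8 of these 10 windows and in 20.2% of all 32851 windows of the same length. ETS letters occurred in 7 of 10 and in 35.4% of all windows, and RUNX and TCF/LEF letters in 2 of 10 each, against 16.8% and 16% of all windows. RUNX matches lay in windows of Lck and Zap70, and the Cd8a window held none of the 4 motifs. These are matches of letters only.

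Cd3e, the epsilon chain that pairs with each of the other CD3 chains, was lowest on average in EKO skin. Its level in mice 1 to 4 was 7.18, 23.0, 16.7 and 21.4 CPM in Control and 7.74, 14, 8.01 and 11.2 CPM in EKO. MKO mice had 13.2, 22.2, 22.4 and 18.4 CPM, and EMdKO mice 16.2, 8.36, 18.3 and 12.5 CPM. Every EKO mouse lay below 3 of the 4 Control mice, and Control mouse 1 lay below all EKO mice, so the groups overlapped. The group means were 17.1 ± 7.11 CPM in Control mice, 10.2 ± 2.94 in EKO, 19.1 ± 4.34 in MKO and 13.8 ± 4.37 in EMdKO (SD, n = 4 each).

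The difference of Cd3e between EKO and Control was -0.74 (SE 0.33, 95% interval -1.43 to -0.04, edgeR unadjusted p = 0.0403, adjusted p = 0.703). EKO and MKO overlapped only through MKO mouse 1 and EKO mouse 2, at 13.2 and 14 CPM. The difference between EKO and MKO was -0.90 (SE 0.33, 95% interval -1.6 to -0.20, edgeR unadjusted p = 0.015, adjusted p = 0.188). For this comparison limma-voom gave -0.95 with an adjusted p of 0.0225, and over the 26 alternative settings the difference ran from -1.09 to -0.78 and the adjusted p from 0.0225 to 0.386. Fitted with the hair shaft score, the difference was -0.82 (edgeR adjusted p = 0.26), and with a score of 13 skeletal muscle genes it was -1.01 (edgeR adjusted p = 0.146). In EMdKO, Cd3e differed from Control by -0.30 (95% interval -0.99 to 0.39) and from EKO by 0.44 (95% interval -0.26 to 1.13).

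Cd3g, the gamma chain, had its highest mean in MKO skin. Mice 1 to 4 had 12.1, 17.5, 24.8 and 29.0 CPM in Control and 13.3, 35.4, 36.1 and 33.5 CPM in MKO. Levels were 12.6, 23.5, 13.7 and 22.5 CPM in EKO and 28.5, 16.5, 14.7 and 18.9 CPM in EMdKO. MKO mice 2, 3 and 4 lay above all 12 mice of the other groups, while MKO mouse 1 lay near the lowest Control mouse, so no pair of groups was separated. The means were 20.9 ± 7.49 CPM in Control mice, 18.1 ± 5.70 in EKO, 29.6 ± 10.9 in MKO and 19.6 ± 6.16 in EMdKO (SD, n = 4 each).

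MKO differed from Control in Cd3g by 0.50 (SE 0.34, 95% interval -0.21 to 1.22, edgeR adjusted p = 0.666). EKO differed from MKO by -0.71 (SE 0.34, 95% interval -1.43 to 0.00, edgeR unadjusted p = 0.0507, adjusted p = 0.296), and EMdKO from MKO by -0.59 (SE 0.34, 95% interval -1.30 to 0.12, edgeR adjusted p = 0.743). The hair shaft score moved with this gene, with a Pearson r of -0.52 over the 16 libraries and -0.45 after group means were removed. This was not particular to Cd3g, since over the 16 libraries the r was -0.66 for Lck and -0.54 for Cd2, and it reached 0.36 for Thy1. In a fit with that score as a covariate, the EKO to MKO difference of Cd3g was -0.44 and the MKO to Control difference 0.20. MKO libraries 1 to 3 had hair scores of -1.73, -1.56 and -1.58, among the lowest of the series, and MKO library 4 had 3.69. Of these, MKO mouse 1 had the low Cd3g level of 13.3 CPM, and MKO mouse 4 had 33.5 CPM. EMdKO mice 2 and 4, with low scores of -1.68 and -1.56, had 16.5 and 18.9 CPM of Cd3g. Other mice went the other way. Control mouse 4, with the lowest score, -1.74, had 29.0 CPM, and Control mouse 1, with the highest, 10.48, had 12.1 CPM. EMdKO mouse 1 (score 0.62) had 28.5 CPM and EMdKO mouse 3 (score 7.61) had 14.7 CPM. The part of hair shaft RNA in the level of Cd3g was not tested.

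Cd3d, the delta chain, was counted at only 3 to 22 reads a library. Its levels were 0.495, 0.863, 1.59 and 1.5 CPM in Control mice, 0.31, 1.40, 1.33 and 0.525 in EKO, 0.627, 0.506, 1.07 and 0.753 in MKO, and 1.82, 2.06, 0.381 and 0.945 in EMdKO. The groups overlapped throughout, and EMdKO held the 2 highest mice and also mouse 3, the second lowest of all 16. The intervals were accordingly wide, from -1.81 to 0.63 for MKO against Control (log2 fold change -0.59) and from -0.41 to 1.98 for EMdKO against MKO (log2 fold change 0.79).

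The CD3 chains did not follow each other equally across mice. Cd3e and Cd3g had a Pearson r of 0.73 in log2 CPM over the 16 libraries, and 0.68 after each group's mean was removed. For Cd3d the r was 0.10 with Cd3e and 0.33 with Cd3g, and counting error at 3 to 22 reads is part of the spread of Cd3d. The ratio of Cd3g to Cd3e, read within each library so that depth cancels, was 1.36 to 2.01 in 13 of the 16 mice. It was 0.763 in Control mouse 2, 0.802 in EMdKO mouse 3 and 1.01 in MKO mouse 1, and the counts behind the first of these were 122 for Cd3g and 160 for Cd3e.

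**Figure D2:**
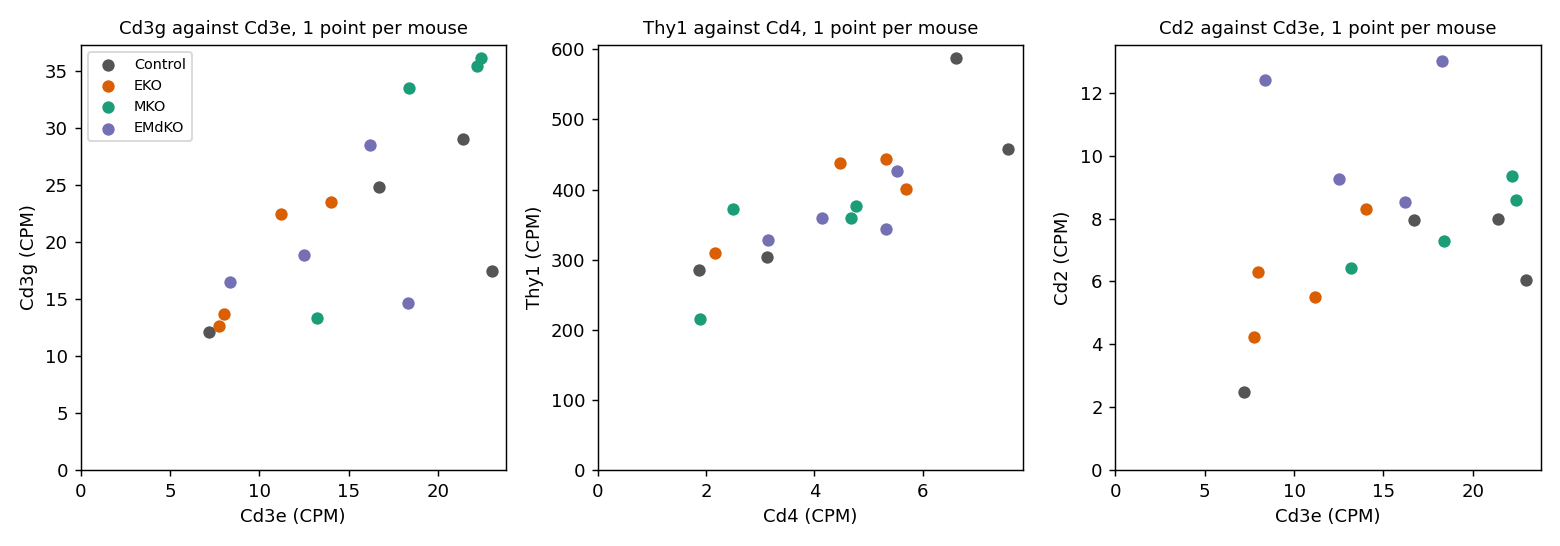
Each point is 1 mouse, coloured by group, with levels in CPM on linear axes from 0: Cd3g against Cd3e (left), Thy1 against Cd4 (middle) and Cd2 against Cd3e (right). Cd3g and Cd3e (r = 0.73) and Thy1 and Cd4 (r = 0.83) run together, with Control mouse 2, EMdKO mouse 3 and MKO mouse 1 below the others on the left, and Cd2 per Cd3e on the right is 0.526 to 1.48 in EMdKO and 0.494 to 0.788 in EKO.

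Among the coreceptors, Cd4 (chr6:124864693-124888247), which binds MHC class II and marks helper and regulatory T cells, had overlapping ranges in all groups. Mice 1 to 4 had 1.86, 6.62, 7.57 and 3.12 CPM in Control mice, 2.17, 5.32, 5.70 and 4.47 in EKO, 1.88, 4.68, 2.50 and 4.77 in MKO, and 4.14, 5.33, 5.52 and 3.15 in EMdKO. The lowest and the highest of the 16 mice were both Control mice. The differences from Control were -0.12 (95% interval -1.02 to 0.77) in EKO, -0.47 (-1.38 to 0.44) in MKO and -0.09 (-0.98 to 0.80) in EMdKO on the log2 scale, with edgeR adjusted p-values of 0.961, 0.76 and 0.984.

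Cd8a (chr6:71373427-71379171), the coreceptor chain for MHC class I that marks cytotoxic T cells, had higher means in the groups with Krt14Cre. Counts in mice 1 to 4 were 0, 9, 10 and 3 in Control mice, 3, 14, 11 and 15 in EKO, 1, 10, 7 and 2 in MKO, and 24, 15, 10 and 14 in EMdKO. Levels in CPM averaged 0.651 ± 0.576 in Control mice, 1.21 ± 0.684 in EKO, 0.626 ± 0.520 in MKO and 1.56 ± 0.458 in EMdKO (SD, n = 4 each). The count of 0 in Control mouse 1 allows up to 0.355 CPM, taken as 3 counts. EMdKO mice lay between 0.952 and 1.99 CPM and overlapped with Control mouse 2 at 1.29 CPM and MKO mouse 2 at 1.26 CPM.

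With all reads of a group pooled, Cd8a stood at 0.642 CPM in Control mice (exact Poisson 95% interval 0.403 to 0.973, counting error only), between 0.855 and 1.59 in EKO, 0.652 in MKO (0.398 to 1.01) and 1.57 in EMdKO (1.20 to 2.00). Between mice the spread was larger than counting error, and no difference passed the test. EMdKO differed from Control by 1.24 (SE 0.69, 95% interval -0.21 to 2.70, edgeR adjusted p = 0.684) and from MKO by 1.26 (SE 0.69, 95% interval -0.21 to 2.73, edgeR adjusted p = 0.725). EKO differed from Control by 0.86 (SE 0.70, 95% interval -0.63 to 2.35, edgeR adjusted p = 0.823), and MKO from Control by -0.02 (95% interval -1.66 to 1.62). Fitted with the hair shaft score, the EMdKO to Control difference was 0.78. Over the 16 libraries Cd8a had an r of 0.75 with the mean of 7 NK and cytotoxic cell genes and 0.74 with that of 9 keratinocyte genes. For 15 T cell cytokine receptor and homing receptor genes it was 0.69. The part of these cell types in the level of Cd8a was not tested.

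Lck (chr4:129548344-129573641), the kinase that starts receptor signalling, was highest on average in EMdKO and lowest in EKO. Its levels were 1.24, 2.16, 4.58 and 3.87 CPM in Control mice, 1.45, 3.14, 3.40 and 2.10 in EKO, 3.29, 5.69, 2.26 and 2.76 in MKO, and 3.23, 4.6, 2.19 and 5.67 in EMdKO. All groups overlapped, and the highest MKO and EMdKO mice were at nearly the same level. The largest of its 6 differences was that between EMdKO and EKO, 0.63 (SE 0.42, 95% interval -0.27 to 1.53, edgeR adjusted p = 0.818).

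Zap70 (chr1:36761798-36782821), the kinase that docks on phosphorylated CD3 chains, was counted at 0 to 7 reads a library. The counts were 2, 2, 7 and 3 in Control mice, 2, 1, 1 and 0 in EKO, 1, 3, 2 and 3 in MKO, and 3, 4, 3 and 3 in EMdKO. In CPM the EKO mice lay at 0.206, 0.0872, 0.121 and 0, all below the lowest Control mouse at 0.248 and the lowest EMdKO mouse at 0.249. A separation of this kind, with Control above EKO in every mouse, occurred in 1 of the 10 members, Zap70, and in 1.23% of the 13633 tested genes. Zap70 itself is outside those genes, and of the 8 tested members 0 were separated in this way. The count of 0 in EKO mouse 4 allows up to 0.384 CPM, which is above the lowest Control mouse, and the border between the groups lies at 2 reads in EKO mouse 1 and 2 in Control mouse 1.

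The pooled level of Zap70 was 0.409 CPM in Control mice (exact Poisson 95% interval 0.224 to 0.686, from 14 reads), 0.110 in EKO (0.0299 to 0.281, from 4 reads), 0.293 in MKO (0.134 to 0.557, from 9 reads) and 0.323 in EMdKO (0.172 to 0.553, from 13 reads). In a fit without the filter on low counts, the EKO to Control difference of Zap70 was -1.76 (SE 0.69, 95% interval -3.20 to -0.32, edgeR unadjusted p = 0.0193, adjusted p = 0.752). In the same fit EMdKO differed from EKO by 1.49 (SE 0.69, edgeR adjusted p = 0.815).

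Cd2 (chr3:101275908-101287939), an adhesion receptor on T cells and natural killer (NK) cells that binds CD48 in the mouse, stood highest in EMdKO. Its levels in mice 1 to 4 were 2.48, 6.04, 7.94 and 8 CPM in Control and 8.54, 12.4, 13 and 9.24 CPM in EMdKO. EKO mice had 4.23, 8.29, 6.31 and 5.52 CPM, and MKO mice 6.43, 9.35, 8.58 and 7.28 CPM. Every EMdKO mouse lay above every Control mouse and every EKO mouse, although the lowest EMdKO mouse exceeded the highest of them by only a small margin. EMdKO and MKO overlapped.

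The mean of Cd2 was 6.11 ± 2.59 CPM in Control mice, 6.09 ± 1.70 in EKO, 7.91 ± 1.31 in MKO and 10.8 ± 2.24 in EMdKO (SD, n = 4 each). EMdKO exceeded Control by 0.81 on the log2 scale (SE 0.30, 95% interval 0.17 to 1.45, edgeR unadjusted p = 0.0163, adjusted p = 0.479), a ratio of 1.75, and EKO by 0.82 (SE 0.30, 95% interval 0.18 to 1.46, edgeR unadjusted p = 0.0153, adjusted p = 0.697). Neither difference passed the test. Over the 26 alternative settings the EMdKO to Control difference ran from 0.52 to 0.97 with adjusted p-values from 0.28 to 0.805. EKO differed from Control by -0.01 (95% interval -0.66 to 0.64).

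EMdKO lay above Control in every mouse for 2 of the 10 members, Cd2 and Cd5, and for 2.23% of the tested genes. EMdKO lay above EKO in every mouse for Cd2 and Zap70, and for 2.86% of the tested genes. Of the 8 tested members that is 1 in each case, Cd2, since Cd5 and Zap70 are outside the 13633 genes. Counting both directions, groups were separated for 2.26% of tested genes in EKO against Control, 3.67% in EMdKO against Control and 5.57% in EMdKO against EKO. No member was separated between MKO and Control, EMdKO and MKO, or EKO and MKO, where 3.08%, 5.99% and 10.3% of tested genes were.

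Cd5 (chr19:10718107-10739026), a surface protein that dampens receptor signalling, was counted at 0 to 8 reads a library. The counts were 1, 1, 2 and 1 in Control mice, 0, 7, 5 and 4 in EKO, 1, 0, 6 and 3 in MKO, and 6, 8, 4 and 2 in EMdKO. In CPM the highest Control mouse was at 0.187 and the lowest EMdKO mouse at 0.210, so their separation rested on 2 reads in each of those mice. The counts of 0 in EKO mouse 1 and MKO mouse 2 allow up to 0.306 and 0.394 CPM. Pooled levels were 0.146 CPM in Control mice (exact Poisson 95% interval 0.0474 to 0.341, from 5 reads), 0.440 in EKO (0.251 to 0.714), 0.326 in MKO (0.156 to 0.6) and 0.497 in EMdKO (0.304 to 0.768, from 20 reads). Without the filter on low counts the EMdKO to Control difference was 1.70 (SE 0.88, edgeR adjusted p = 0.744).

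Thy1 (chr9:44043384-44048579), a surface glycoprotein of mouse T cells, is also made by fibroblasts and neurons, and it was counted far more often than any other member, at 1379 to 5086 reads a library. Amplicon counts do not give the ratio of levels between genes. Control mice had 286, 588, 458 and 304 CPM and EKO mice 309, 444, 401 and 438 CPM. MKO mice had 216, 360, 372 and 377 CPM and EMdKO mice 360, 344, 427 and 328 CPM. The Control group held the highest mouse and MKO the lowest, and all groups overlapped.

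The differences of Thy1 were bounded more narrowly than those of the other members. EKO differed from Control by -0.04 (SE 0.23, 95% interval -0.54 to 0.46, edgeR adjusted p = 0.981), MKO by -0.30 (SE 0.23, -0.80 to 0.19, edgeR adjusted p = 0.718) and EMdKO by -0.17 (SE 0.23, -0.66 to 0.33, edgeR adjusted p = 0.928). Across the 16 libraries, log2 CPM of Thy1 had an r of 0.83 with Cd4 and 0.61 with Cd8a, but 0.35 with Cd3e and -0.02 with Lck. After group means were removed these were 0.83, 0.73, 0.66 and 0.09. With the means of lists of T cell genes its r ran from 0.42 for 3 cytokine genes to 0.80 for 15 cytokine receptor and homing receptor genes. With the means of lists of other cell types its r was 0.74 for 6 innate lymphoid cell genes, cells that carry Thy1 in the mouse, and 0.65 for 7 NK and cytotoxic cell genes. It was 0.55 for 8 mast cell and neutrophil genes, 0.45 for 12 dendritic and Langerhans cell genes, 0.15 for 9 fibroblast genes and -0.53 for 13 skeletal muscle genes. The part of other cell types in the level of Thy1 was not tested.

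**Figure D3:**
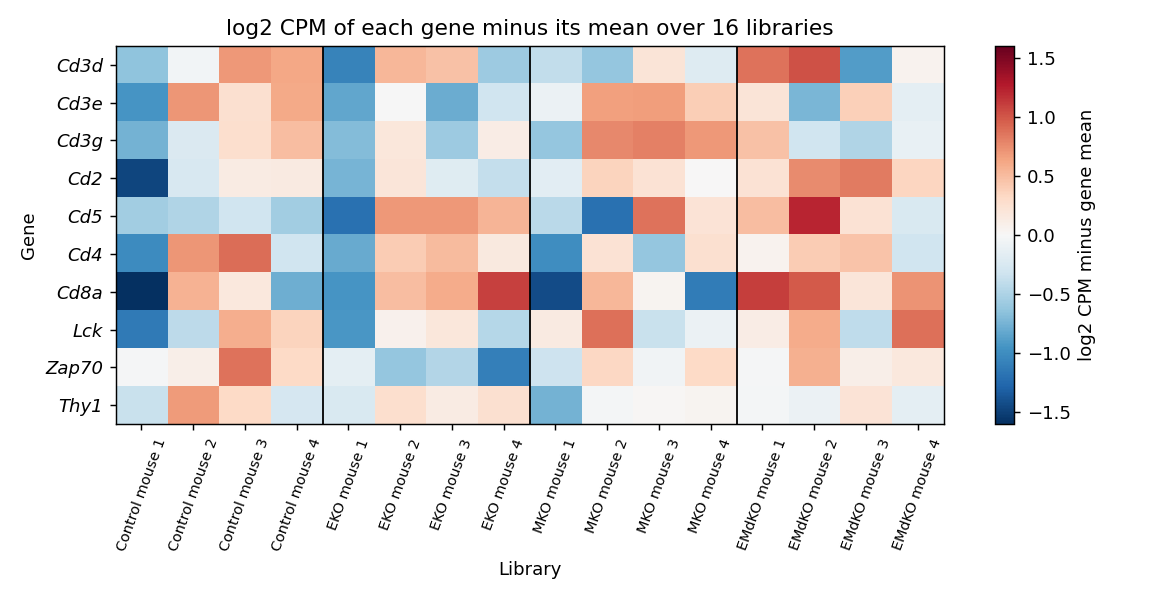
Colour gives log2 CPM (prior count of 2) of each gene in each library minus that gene's mean over the 16 libraries, red above and blue below, with the mice ordered by group. Control mouse 1 and EKO mouse 1 are low for most genes, and the EMdKO mice are high for Cd2 and Cd8a.

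Mice within a group differed in many members at once. The summed level of the 3 CD3 chains was 19.8 CPM in Control mouse 1 and 41.4 to 51.9 CPM in the other 3 Control mice. It was 20.6 to 38.8 CPM in EKO, 27.1 to 59.6 in MKO and 26.9 to 46.6 in EMdKO. Control mouse 1 was the lowest Control mouse for Cd3d, Cd3e, Cd3g, Cd2, Cd4, Cd8a, Lck, Zap70 and Thy1, and it had the highest hair shaft score of all libraries, 10.48. Without Control mouse 1 no member was called in any comparison. Beyond Cd3e with Cd3g and Thy1 with Cd4, the highest correlations among the 8 tested members were those of Lck with Cd2 (r = 0.68) and of Cd4 with Cd8a (r = 0.67).

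Cd2, Thy1 and Cd4 were also read as ratios to Cd3e within each library, and since the mean of Cd3e was lowest in EKO, all of these ratios carry that low level. Cd2 per Cd3e was 0.494 to 0.788 in EKO and 0.526 to 1.48 in EMdKO, against 0.263 to 0.475 in Control and 0.383 to 0.488 in MKO. Thy1 per Cd3e was 31.8 to 50.1 in EKO, 16.2 to 20.5 in MKO, 14.2 to 39.9 in Control and 22.2 to 41.1 in EMdKO. Cd4 per Cd3e was 0.28 to 0.712 in EKO, 0.112 to 0.259 in MKO, 0.146 to 0.453 in Control and 0.252 to 0.638 in EMdKO. These ratios were chosen after their values were seen and carry no test. In EKO the mean of Cd2 was near that of Control and the mean of Cd3e lower, while in EMdKO the mean of Cd2 was higher.

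**Figure D4:**
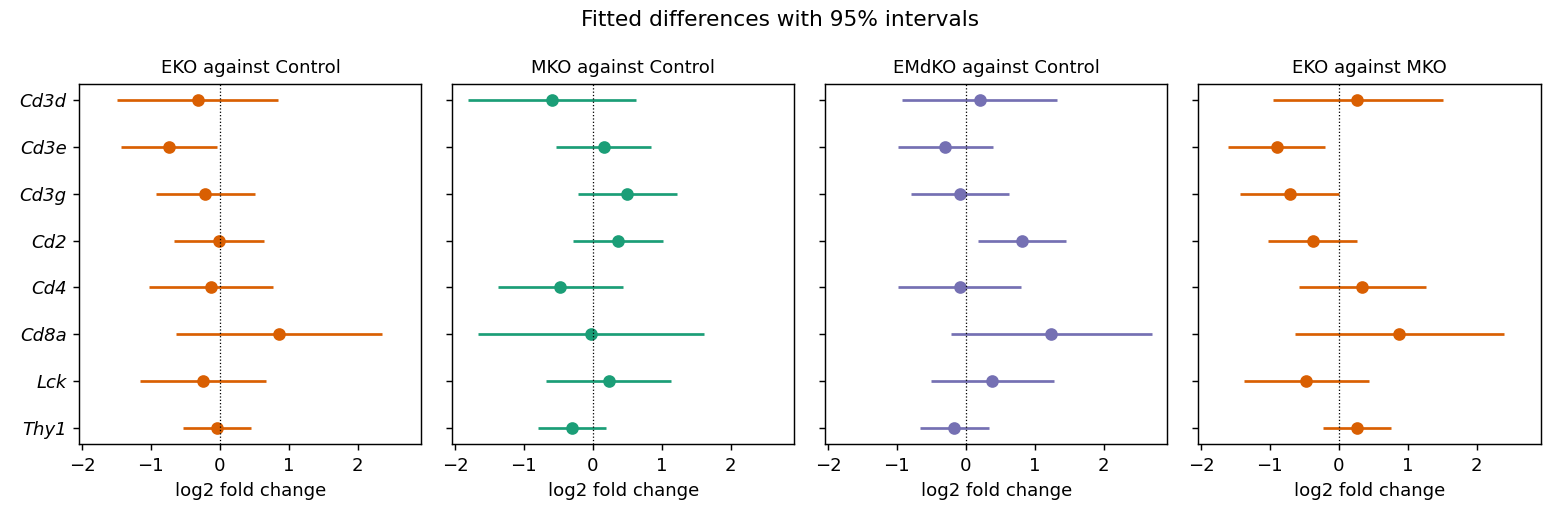
Fitted log2 fold change (horizontal axis) of the 8 tested members with its 95% interval in EKO, MKO and EMdKO against Control and in EKO against MKO, with a dotted line at no difference. The interval lies wholly below 0 for Cd3e in EKO against Control and in EKO against MKO and wholly above 0 for Cd2 in EMdKO against Control, with adjusted p-values above 0.05 in each.

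Counted together, 1 of the 8 tested members was higher in EKO than in Control and 7 were lower, with a median log2 fold change of -0.17, where the median of all tested genes was -0.03 and 45.8% were higher. Of the 7 lower members, Cd2, Thy1, Cd4 and Lck turned direction under some alternative settings. In MKO and in EMdKO 4 were higher and 4 lower, with medians of 0.07 and 0.06, where 50.2% and 47.1% of all tested genes were higher. Against EKO, 7 of 8 were higher in EMdKO, with a median of 0.41, and the median of all genes was 0.00, with 50.3% higher. Against MKO, 6 of 8 were higher in EMdKO (median 0.27) and 4 of 8 in EKO (median -0.06), against 48.1% and 47.7% of all tested genes. The comparisons share groups and are not independent of each other.

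Other genes of T cells were counted from lists of receptor subunits, signal relay, costimulation, transcription factors, cytokines, homing receptors and skin-resident T cells. Of these genes, 78 outside the members were tested, and edgeR called 0 in each of the 6 comparisons, with 8, 8, 8, 3, 3 and 9 at an unadjusted p under 0.05 in the order given above. Against Control 36 of 78 were higher in EKO (median log2 fold change -0.06), 47 in MKO (0.10) and 48 in EMdKO (0.12). Of all tested genes 45.8%, 50.2% and 47.1% were higher in that order. Against EKO 56 of 78 were higher in EMdKO (median 0.20), and 25 of 78 were higher in EKO than in MKO (median -0.20). Of all tested genes 50.3% and 47.7% were higher in that order.

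Among receptor subunits, no target matched Trac, Trbc1, Trbc2 or Trdc, and these chains were not analysed here. Cd247, the zeta chain of the complex, was at 5.31 ± 2.73 CPM in Control mice, 5.29 ± 2.55 in EKO, 8.09 ± 2.45 in MKO and 5.15 ± 1.79 in EMdKO (SD, n = 4 each). Its MKO to Control difference was 0.61 (SE 0.40, edgeR adjusted p = 0.659), and its mean, like that of Cd3g, was highest in MKO. Cd28, the main costimulatory receptor, had its lowest mean in MKO, at 0.992 ± 0.397 CPM against 2.42 ± 1.58 in Control (log2 fold change -1.24, SE 0.52, edgeR adjusted p = 0.451).

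Of the 24 tested genes that relay the receptor signal, 19 were higher in MKO than in Control (median 0.14), 15 in EMdKO (median 0.14) and 11 in EKO (median -0.10). Among all tested genes 50.2%, 47.1% and 45.8% were higher in that order. Fyn, a kinase of the same family as Lck, was at 37.0 ± 5.10 CPM in Control and 21.3 ± 6.80 in EKO (log2 fold change -0.80, SE 0.21, edgeR adjusted p = 0.369), and many cell types other than T cells express it. Over the 26 alternative settings, DESeq2 and limma-voom included, the adjusted p of Fyn ran from 0.0259 to 0.996. Only 1 setting, edgeR without EKO mouse 1, put Fyn under the threshold. Fyb, an adaptor also found in myeloid cells, was at 20.7 ± 6.45 CPM in Control and 32.5 ± 3.5 in MKO (log2 fold change 0.65, SE 0.20, edgeR adjusted p = 0.331). Its EKO to MKO difference, -0.88 (SE 0.20), had an edgeR adjusted p of 0.0518, and from 0.00313 to 0.159 over the alternative settings.

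Among costimulatory genes, Icos, an inducible receptor of activated T cells, was at 0.852 ± 0.270 CPM in Control and 2.10 ± 0.228 in EMdKO (SD, n = 4 each). The 4 EMdKO mice lay at 1.91, 2.30, 2.28 and 1.89 CPM and the Control mice at 0.867, 0.575, 1.21 and 0.750 CPM, from 4 to 24 reads a library. The difference was 1.26 (SE 0.41, edgeR adjusted p = 0.434). The chain Il18r1, a receptor for interleukin 18, was at 21.6 ± 6.63 CPM in Control and 11.3 ± 2.37 in EKO (log2 fold change -0.93, SE 0.30, edgeR adjusted p = 0.542), the same order as Cd3e. Only 3 of 14 T cell cytokine genes could be tested, and Il17a and Il22 had no read in any library.

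**Figure D5:**
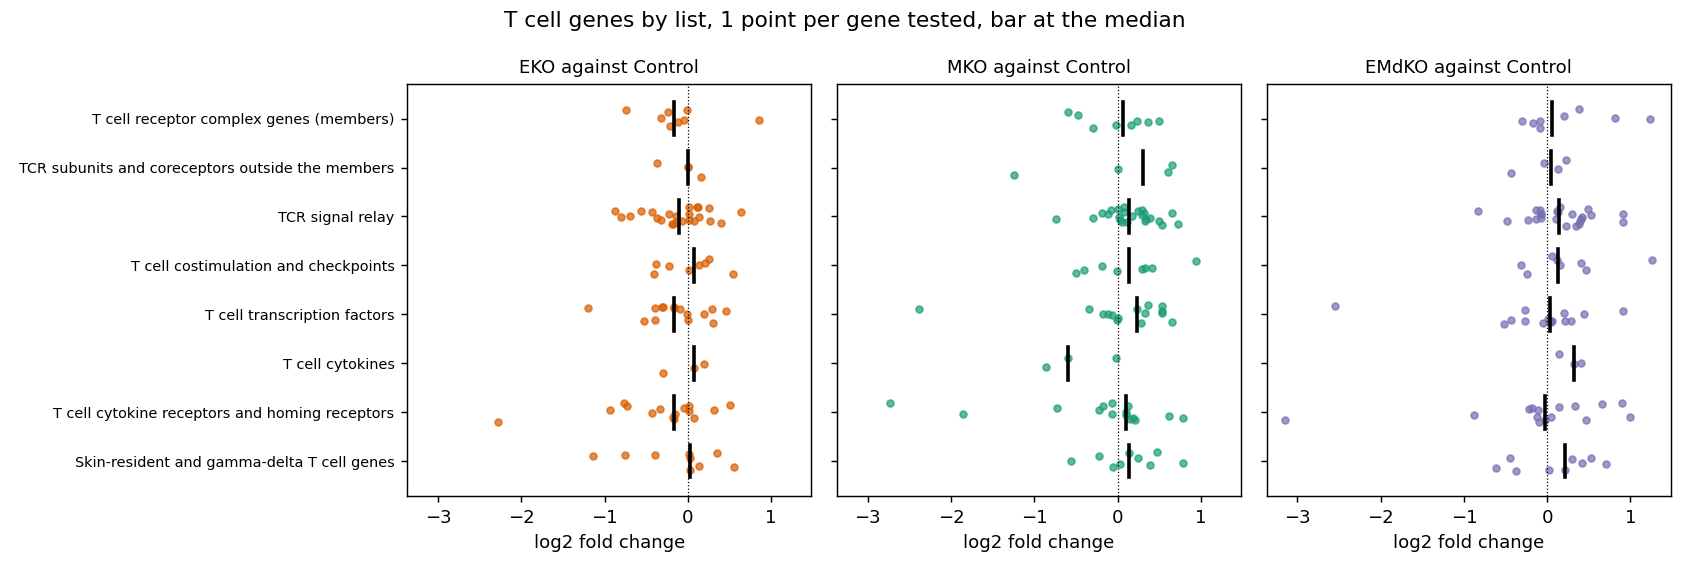
Each point is the fitted log2 fold change (horizontal axis) of 1 tested gene in EKO, MKO or EMdKO against Control, by gene list, with a bar at the list's median. The medians of the members are -0.17, 0.07 and 0.06, and no point shown passed an adjusted p of 0.05.

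Markers of other cell types that carry some members were read beside them. NK and cytotoxic cells also express Cd2, Lck and Zap70, and the summed level of 12 of their genes was 8.67 to 25.6 CPM in Control, 7.23 to 25.5 in EKO, 9.72 to 24.1 in MKO and 11.0 to 17.2 in EMdKO. Of 7 such genes tested, 3 were higher in EMdKO than in Control, with a median of -0.60, where 47.1% of all tested genes were higher. Over the 16 libraries the r of the tested members with the mean of these 7 genes ran from 0.20 for Cd3e to 0.75 for Cd8a. None of the 12 was at 0 in every library, and their part in the levels of the members was not tested.

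Of the lymph node stroma markers only Cxcl13, a B cell chemokine, could be tested, and of the B and plasma cell markers 4 could. Between EKO and MKO, Cxcl13 and 2 of these 4 passed the test, and none passed it in the other 5 comparisons. The summed level of 4 lymph node stroma genes was 6.25 to 53.5 CPM in Control, 11.3 to 14.3 in EKO, 59.6 to 237 in MKO and 43.4 to 103 in EMdKO. Nearly all of this sum was Cxcl13, whose lowest mice stood at 6.12, 11.2, 59.4 and 43.1 CPM in that order. The sum therefore shows no difference between groups in the other genes of this list. Cxcl13 was lower in EKO than in MKO (log2 fold change -3.5, SE 0.57, edgeR adjusted p = 0.0137). The summed level of 7 B and plasma cell genes overlapped between all groups, at 95.1 to 113 CPM in Control, 85.5 to 144 in EKO, 79 to 182 in MKO and 98 to 166 in EMdKO. In EKO against MKO the B cell receptor subunit Cd79b (-1.79, SE 0.35, edgeR adjusted p = 0.0327) and the plasma cell gene Jchain (-5.38, SE 0.94, edgeR adjusted p = 0.0178) were lower in EKO. Of 26 alternative settings, 23 kept the call of Cxcl13, 17 that of Cd79b and 20 that of Jchain. Cxcl13 missed the threshold without EKO mouse 2, EKO mouse 3 or MKO mouse 3, with edgeR adjusted p-values of 0.055, 0.0608 and 0.0605. Cd79b and Jchain missed it without any 1 of EKO mice 2 and 3 and MKO mice 2 and 3, and Cd79b also without MKO mouse 4 or EMdKO mouse 1, with edgeR adjusted p-values of up to 0.122 and 0.0887. Both also missed it in a fit of the 2 groups alone (0.0579 and 0.0501) and with the hair shaft score (0.0507 and 0.0616), and Cd79b with a block for mouse number (0.0558), all edgeR adjusted p-values. Cd3e and Cd3g were also lower on average in EKO than in MKO without passing the test, and over the 16 libraries the r with the mean of the 4 tested B and plasma cell genes was 0.68 for Cd3g, 0.49 for Cd3e and 0.15 for Cd3d. The cause of these correlations was not tested.

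The genes whose log2 CPM followed the mean of the 3 CD3 chains most closely over the 16 libraries, among 12022 genes, were Adgre4 (r = 0.86), Tmem116 (0.85), Arrb1 (0.84), Kcng1, Dgkg, Ahr, Zfp667 and Skint7 (0.82 each), and Grap2 and Mmrn1 (0.81 each). Grap2 is an adaptor of the T cell receptor pathway, Skint7 belongs to a family expressed in mouse skin and thymus, and Ahr is a receptor for aryl hydrocarbons that skin-resident T cells express. Only Grap2 was in the lists of T cell genes read here, and the other genes of the ranking, with Adgre4 at its top, were not. After group means were removed these correlations were between 0.80 and 0.90. Among genes of the T cell lists, Il2rb and Trat1 had an r of 0.79 and Cd247 of 0.78. For the members outside the CD3 chains the r was 0.58 for Cd2, 0.55 for Lck, 0.42 for Cd4, 0.40 for Cd8a and 0.33 for Thy1. Hair shaft RNA and depth differed between these libraries, their part in these correlations was not tested, and the ranking is a description.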

How the data were processed

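Whole skin RNA of 16 mice, 4 per group, was measured, per the labels, with an Ion AmpliSeq kit that amplifies a short piece of each transcript. Each deposited file gives the raw read count of every target. The submitters' processing notes name HTSeq 0.6.0 as a tool, and DESeq2 1.18.1. The aligner, genome build and annotation are not given in the sources used here, so positions are those of RefSeq for GRCm38.p6. A RefSeq table of that build named 22452 of 23930 targets and GENCODE vM21 another 110, and 1368 had no symbol. The 5 HTSeq summary lines, 3.11 to 5.25% of reads, were left out. Strand use in counting is not stated, and amplicons differ in yield, so genes were not ranked by level, and ratios of genes were read only between libraries.

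The fit used edgeR 4.0.16 under R 4.3.3, with TMM scaling, filterByExpr, the quasi-likelihood test and 1 mean for each group over all 16 libraries, and p-values were adjusted over 13633 genes (Benjamini-Hochberg, threshold 0.05). The SE was the fold change divided by the root of the F statistic. CPM of single mice and their group means used TMM-scaled library sizes, and correlations used log2 CPM with a prior count of 2. Pooled levels, their Poisson intervals and the limits for a count of 0 used library sizes without TMM scaling. Poisson intervals and the limit of 3 counts for a count of 0 cover counting error only, at 95%. Alternatives were DESeq2 1.42.0, limma-voom with quality weights (limma 3.58.1), other scaling, no filter or a filter of 1 CPM in 4 libraries, a fit of only the groups compared, a block for mouse number, hair and muscle scores as covariates, and each library left out. The fit was tested on simulated data. Descriptions used python 3.11.15, pandas 2.3.3 and numpy 2.4.6.

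The members and gene lists were chosen with earlier results of these data known. Named genes were all members, the called genes of each list and the 2 with the smallest p against Control (of which a part is printed), and the 10 genes most correlated with the mean of Cd3d, Cd3e and Cd3g among genes with a mean log2 CPM of at least 1. A further gene is not reported here.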

Additional observations from a re-analysis of the deposited data

Results flagged for a closer look

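In each group of 4 mice, the gap between an extreme mouse and its nearest neighbour was compared with the group's range for all 10 members, and a ratio above Dixon's 95% critical value marked a mouse far from the others. Of the 40 groups read this way 3 were marked, and chance marks about 1 in 20. MKO mouse 1 was the low one for Cd3g, at 13.3 CPM against 33.5 to 36.1 CPM in the other 3 MKO mice. The same mouse was low for Thy1, at 216 CPM against 360 to 377 CPM. This library had the fewest counts of the series, 6962474, and the highest skeletal muscle score, 12.62, and their part in these values was not tested. EKO mouse 1 was low for Cd5, at 0 CPM, where the other 3 EKO mice had 4 to 7 reads.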

How the results depend on the processing

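Of the 48 fold changes of members, recomputed under up to 26 settings, 1186 of 1244 values kept their direction and their side of the threshold, 57 turned direction and 1 passed the threshold, Cd3e in EKO against MKO under limma-voom (1 member called, against 0 in the other 155 counts of members). The 18 fold changes that turned were at most 0.47 in size.

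Genes called over the whole table moved more. DESeq2 called 51 in EKO against Control, 92 in MKO against Control, 71 in EMdKO against Control, 10 in EMdKO against EKO, 141 in EMdKO against MKO and 607 in EKO against MKO, and limma-voom called 4, 0, 8, 2, 8 and 1591 in that order. Without the filter 3 were called in EKO against Control and 9 in EMdKO against MKO. Fits on the 2 groups alone called 1 in MKO against Control, 10 in EMdKO against Control and 90 in EMdKO against MKO. The hair covariate gave 1 in MKO against Control, 2 in EMdKO against MKO and 38 in EKO against MKO, and the muscle covariate 8 in EKO against Control and 9 in EMdKO against MKO. Leaving out 1 library gave 0 to 127 in EKO against Control, 1 to 5 in MKO against Control, 2 to 40 in EMdKO against Control, 1 to 3 in EMdKO against EKO, 1 to 95 in EMdKO against MKO and 8 to 510 in EKO against MKO. The highest counts in EKO against Control, EMdKO against Control, EMdKO against MKO and EKO against MKO all came without EKO mouse 1, and the 8 without MKO mouse 3. The cause of these shifts was not tested.

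Mouse numbers did not pair the samples: same-numbered mice had a median r of -0.106 (-0.543 to 0.61), 7 of 24 pairs were over 0.1, and 4 of 16 libraries were nearest their own number. With the number as a replicate block 46 genes were called in EKO against MKO, against 117 without it, and the block turned Cd2 in EKO against Control (0.0258), Cd3g in EMdKO against Control (0.0124) and Cd4 in EMdKO against Control (0.0615).

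limma-voom turned Thy1 in EKO against Control (0.0475), Cd8a (0.21) and Lck (-0.16) in MKO against Control, Cd3d in EMdKO against Control (-0.0738) and Cd4 in EMdKO against EKO (-0.19). The hair covariate turned Lck in MKO against Control (-0.33), in EMdKO against Control (-0.0618) and in EKO against MKO (0.0657), Cd3d (-0.30) and Cd4 (0.0115) in EMdKO against Control and Cd3g in EMdKO against EKO (-0.0811). The muscle covariate turned Cd8a in MKO against Control (0.0237). Upper quartile scaling turned Cd2 in EKO against Control (0.00579) and Cd8a in MKO against Control (0.00511), and Cd2 in EKO against Control also turned without the filter (0.0131) and with the 2 groups alone (0.00236). Leave-one-out ranges that crossed 0 were, in EKO against Control, -0.27 to 0.15 for Cd2, -0.18 to 0.19 for Thy1, -0.39 to 0.20 for Cd4 and -0.50 to 0.0569 for Lck. In MKO against Control they were -0.58 to 0.46 for Cd8a, -0.11 to 0.53 for Lck and -0.0917 to 0.34 for Cd3e. In EMdKO against Control they were -0.0837 to 0.51 for Cd3d, -0.33 to 0.11 for Cd3g, -0.35 to 0.24 for Cd4 and -0.30 to 0.0622 for Thy1. In EMdKO against EKO they were -0.12 to 0.28 for Cd3g and -0.19 to 0.18 for Cd4, in EMdKO against MKO -0.0741 to 0.50 for Lck and -0.0224 to 0.21 for Thy1, and in EKO against MKO -0.0571 to 0.56 for Cd3d.

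Depth limits Cd3d, Cd5, Cd8a and Zap70, each at 24 reads or fewer in every library.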
